A study of Mus musculus with 8 samples.

Results

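Brown adipose tissue (BAT), the heat-producing fat depot of rodents, was compared between lean and leptin receptor deficient obese mice by bulk RNA-seq, and 9 genes of triglyceride synthesis are described here out of 31053 genes in the count table. They are the glycerol-3-phosphate acyltransferases (GPATs) Gpam, Gpat3 and Gpat4, the acylglycerol-phosphate acyltransferases (AGPATs) Agpat2 and Agpat3, the lipins Lpin1 and Lpin2, and the diacylglycerol acyltransferases (DGATs) Dgat1 and Dgat2, chosen by name and matched by Ensembl identifier. The 4 WT libraries came from C57BL6/J males and the 4 db/db libraries, labelled with the same strain, from males homozygous for a mutation of the leptin receptor gene Lepr, a model in which all tissues lack the long receptor form. All mice were 8 weeks old and on normal diet. The methods state that tissue was taken after a fast, without naming the genotypes this covers. The methods name the db/db strain as B6.BKS(D)-Leprdb/J, and the study's sources differ on whether WT mice came from the same supplier, so genotype cannot be told apart from any difference of supplier or background.

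Triglyceride is built on a glycerol backbone in a chain of reactions. A GPAT puts a fatty acyl group on glycerol 3-phosphate to make lysophosphatidate, an AGPAT adds another to make phosphatidate, a lipin removes the phosphate to leave diacylglycerol, and a DGAT adds the last acyl group. Each step is served by several proteins: GPAM (GPAT1) sits on the mitochondrial outer membrane while GPAT3 and GPAT4 sit on the endoplasmic reticulum, loss of AGPAT2 causes congenital generalized lipodystrophy in humans, loss of lipin 1 causes the fatty liver dystrophy of fld mice, and DGAT1 and DGAT2 are unrelated in sequence. In brown fat the stored triglyceride feeds lipolysis, which supplies fatty acids for heat production.

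The libraries held from 2374079 to 3240074 counts, and a floor of 3 counts corresponds to 0.902 to 1.33 CPM (CPM being the count relative to the TMM-scaled library size). The floors cover counting error only, while the 95% intervals given with fold changes include the spread between libraries. No library had a count for Lepr (0 in each of 8), which leaves the genotype labels without a check on that gene. The cell type field of the labels names the stromal vascular fraction, the cells left once mature adipocytes are removed, but 7 general adipocyte markers (Adipoq, Plin1, Lipe, Pnpla2, Fabp4, Cidec and Pparg) summed to between 12340 and 22140 CPM and 8 brown adipocyte markers (Ucp1, Cidea and others) to between 3183 and 9557 CPM, so the libraries are described as BAT. Across all 9264 genes tested with edgeR, 27.7% passed an adjusted p of 0.05, 15.8% higher and 11.9% lower in db/db.

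Of the 9 genes, all of which passed the filter on low counts, 5 fell in db/db BAT and none rose (edgeR, adjusted p under 0.05, against 11.9% of all genes tested that were lower and 15.8% that were higher). The 5 were Gpam, Agpat2, Lpin1, Dgat1 and Dgat2, so that each of the 4 steps held at least 1 gene that fell. For the GPAT step this was Gpam alone, which held 1.97% of that step's counts in WT and 0.783% in db/db. Most counts of the GPAT step came from Gpat4. Gpat3, Gpat4, Agpat3 and Lpin2 did not pass. The levels of 4 of the 9 genes, Gpam, Lpin1, Dgat1 and Dgat2, did not overlap between the genotypes, each lower in db/db, against 12.7% of all genes tested. The median log2 fold change was −0.66 over the 9 genes and 0.01 over all genes tested. DESeq2 called the same 5 genes, but 1 of the 9 (Agpat2) passed in edgeR once a score of skeletal muscle markers, which was higher in db/db, was added to the model. In bulk tissue, fewer cells of a type and less RNA per cell cannot be told apart.

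**Figure D1:**
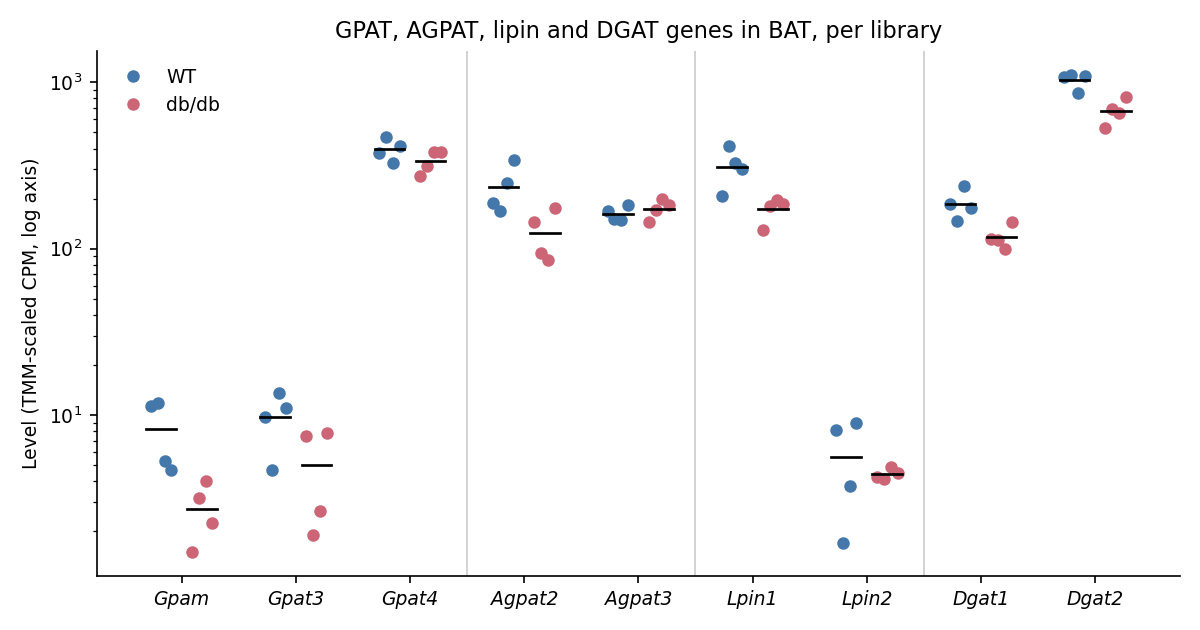
Level of each gene in TMM-scaled CPM (log axis) in the 4 WT (blue) and 4 db/db (red) libraries, with each point a library and each black bar a genotype mean, ordered by reaction step. The db/db points of Gpam, Lpin1, Dgat1 and Dgat2 all lie below the WT points, those of Agpat3 lie on both sides of the WT range, and Gpam, Gpat3 and Lpin2 lie under 15 CPM in every library.

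Gpam (ENSMUSG00000024978, chromosome 19, 55067268 to 55127238, mm10, minus strand) encodes the mitochondrial GPAT and is a known target of the lipogenic factor SREBP-1. Its levels were 11.3, 11.8, 5.26 and 4.67 CPM in the WT libraries and 1.504, 3.18, 3.99 and 2.23 CPM in the db/db libraries. Every db/db library was below every WT library. The mean fell from 8.27 ± 3.83 to 2.73 ± 1.09 CPM (SD, n = 4 each), a log2 fold change of −1.61 (SE 0.44, adjusted p by edgeR 0.0103). This was the largest fall of the 9 genes on the log2 scale, but it rests on 11 to 28 counts per WT library and 5 to 10 counts per db/db library. Only 0.756% of all genes tested had a lower log2 fold change.

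Gpat3 (ENSMUSG00000029314, chromosome 5, 100845713 to 100899102), an endoplasmic reticulum GPAT known to be induced in fat cell differentiation, was also low. It lay at 9.71, 4.64, 13.5 and 11.04 CPM in WT and at 7.52, 1.91, 2.66 and 7.81 CPM in db/db, with 1 WT library below 2 of the db/db libraries. Its log2 fold change of −0.95 (SE 0.44, 95% interval −1.87 to −0.03, edgeR adjusted p 0.117) did not pass over all genes. With every gene of at least 1 count tested, it passed (adjusted p 0.0402). Its exons overlap those of 4930458D05Rik on the opposite strand and the counting is not stated to use strand, so the value is uncertain.

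Gpat4 (ENSMUSG00000031545, chromosome 8, 23171265 to 23208346, minus strand), the other endoplasmic reticulum GPAT, held most of the counts of this step, 95.6 ± 1.07% for WT against 97.7 ± 0.766% for db/db (SD, n = 4 each). Its levels were 378, 466.8, 325.8 and 415.1 CPM in WT and 271.7, 315.9, 379.9 and 379.4 CPM in db/db, and the genotypes overlapped. The log2 fold change was −0.24 (SE 0.15, 95% interval −0.55 to 0.08, edgeR adjusted p 0.256).

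Agpat2 (ENSMUSG00000026922, chromosome 2, 26593057 to 26604417, minus strand), the lipodystrophy gene of the second acylation, lay at 189.4, 168.4, 248.8 and 339.1 CPM in WT and at 145.0, 93.8, 86.0 and 174.8 CPM in db/db. The groups overlapped at 1 point, where db/db replicate 4 lay just above WT replicate 2. The mean fell from 236.4 ± 76.5 to 124.9 ± 42.3 CPM (SD, n = 4 each), a log2 fold change of −0.92 (SE 0.23, adjusted p by edgeR 0.00604). The gene shares 64 exonic bases with the endothelial gene Egfl7 on the opposite strand, which had a log2 fold change of −0.35 (SE 0.14, adjusted p by edgeR 0.0689), and reads from these bases cannot be assigned without strand.

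Agpat3 (ENSMUSG00000001211, chromosome 10, 78269178 to 78352489, minus strand), an AGPAT of the endoplasmic reticulum and Golgi, was the only one of the 9 genes with a positive log2 fold change, here and in every alternative run. It measured 167.5, 150.2, 148.8 and 183.8 CPM in WT and 144.4, 170.5, 198.1 and 181.9 CPM in db/db. The change was 0.09 on the log2 scale (SE 0.14, 95% interval −0.19 to 0.38, edgeR adjusted p 0.651).

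Lpin1 (ENSMUSG00000020593, chromosome 12, 16535669 to 16610966, minus strand) encodes lipin 1, the main phosphatidate phosphatase of fat, which also acts in the nucleus as a transcriptional coregulator. Its levels were 206.8, 412.3, 327.3 and 300.5 CPM in WT and 128.8, 179.7, 195.5 and 184.5 CPM in db/db. All db/db libraries lay below WT replicate 1, the lowest of WT. The mean fell from 311.7 ± 84.7 to 172.1 ± 29.6 CPM (SD, n = 4 each), a log2 fold change of −0.86 (SE 0.18, adjusted p by edgeR 0.00192), the lowest adjusted p of the 9 genes.

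Lpin2 (ENSMUSG00000024052, chromosome 17, 71182560 to 71249817), a lipin best known from liver and macrophages, was near the detection floor, as was Gpam in db/db. It lay at 8.09, 1.69, 3.76 and 8.91 CPM in WT and at 4.21, 4.14, 4.88 and 4.46 CPM in db/db, from 4 to 21 counts per library. Its log2 fold change of −0.34 (SE 0.44, 95% interval −1.27 to 0.59, edgeR adjusted p 0.609) did not pass, and the interval reaches from a fall larger than that of Dgat2 to a rise.

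Dgat1 (ENSMUSG00000022555, chromosome 15, 76502015 to 76511953, minus strand), which re-esterifies fatty acids released by lipolysis among other roles, measured 184.9, 146.0, 237.1 and 175.7 CPM in WT and 114.9, 112.3, 100.2 and 144.7 CPM in db/db. The groups came close but did not overlap, with 144.7 CPM in db/db replicate 4 against 146.0 CPM in WT replicate 2. The mean fell from 185.9 ± 37.9 to 118.0 ± 18.9 CPM (SD, n = 4 each), a log2 fold change of −0.66 (SE 0.16, adjusted p by edgeR 0.00496).

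Dgat2 (ENSMUSG00000030747, chromosome 7, 99153658 to 99182719, minus strand), which is linked to the use of newly made fatty acids, had the highest counts of the 9 genes, 1468 to 2658 per library. Its levels were 1076, 1113, 865.8 and 1090 CPM in WT and 531, 695.5, 650.7 and 814.3 CPM in db/db. The lowest WT library, replicate 3, lay above the highest db/db library, replicate 4. The mean fell from 1036 ± 114.7 to 672.9 ± 117.1 CPM (SD, n = 4 each), a log2 fold change of −0.62 (SE 0.15, adjusted p by edgeR 0.00401).

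**Figure D2:**
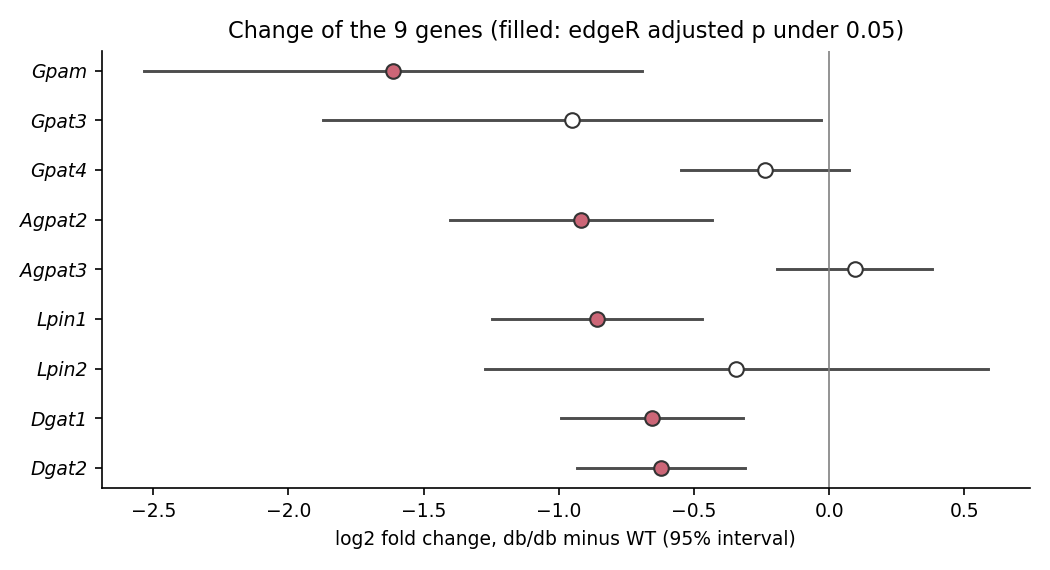
log2 fold change of db/db over WT for each gene (points) with its 95% interval (lines), from edgeR with 4 libraries per genotype, filled where the adjusted p over all genes was under 0.05. Filled points run from −1.61 for Gpam to −0.62 for Dgat2, and Agpat3 alone lies right of 0.

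To compare levels between genes, mean CPM was divided by the length of the annotated exons in kb. Whether reads cover whole transcripts or only their ends is not stated in the sources used here, and the order per kb depends on it. In WT, Dgat2 led with 336 ± 37.2 CPM per kb, followed by Agpat2 with 111 ± 35.9 CPM per kb (SD, n = 4 each). Dgat1 with 60.8 ± 12.4 and Gpat4 with 59.3 ± 8.91 CPM per kb overlapped each other, as did Lpin1 with 32.3 ± 8.76 and Agpat3 with 20.9 ± 2.12 CPM per kb. Gpat3, Gpam and Lpin2 came last, at 2.78, 1.24 and 0.459 CPM per kb, each overlapping the next. In db/db, Dgat2 again stood above all others at 218 ± 38.0 CPM per kb. Agpat2 at 58.6 ± 19.9, Gpat4 at 50.4 ± 7.90 and Dgat1 at 38.6 ± 6.19 CPM per kb followed, with each overlapping the next. Agpat3 and Lpin1 changed places, at 22.3 ± 2.90 and 17.8 ± 3.07 CPM per kb, and overlapped.

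Ratios of counts between genes of the same step were then compared, since a ratio within a library does not depend on how libraries are scaled. For 4 against 4 libraries the exact two-sided permutation test cannot give a p under 0.0286, and p-values were adjusted over the 5 ratios. The ratio of Agpat3 to Agpat2 was 0.885, 0.892, 0.598 and 0.542 in WT and 0.996, 1.82, 2.30 and 1.04 in db/db. All db/db ratios lay above all WT ratios, and the difference of the mean log2 ratio was 1.02, or 2.03-fold (exact permutation p = 0.0286, adjusted 0.0714). Agpat2 held 58.3 ± 6.28% of the counts of the pair for WT against 41.2 ± 9.87% for db/db (SD, n = 4 each).

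The ratio of Gpat4 to Gpam also separated the genotypes, being 32.8 to 85.1 across WT libraries and 90.3 to 164 across db/db libraries, a difference of 1.27 on the log2 scale (exact permutation p = 0.0286, adjusted 0.0714). Neither ratio passed the adjustment over the 5 ratios. The ratio of Dgat2 to Dgat1 was 5.81, 7.61, 3.65 and 6.20 in WT and 4.62, 6.19, 6.48 and 5.62 in db/db. Both DGAT genes fell, and their ratio differed by 0.01 on the log2 scale (exact permutation p = 0.971). The ratios of Gpat3 to Gpam (log2 difference 0.42, exact permutation p = 0.60) and of Lpin2 to Lpin1 (0.74, exact permutation p = 0.40) rest on few counts and overlapped between the genotypes.

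**Figure D3:**
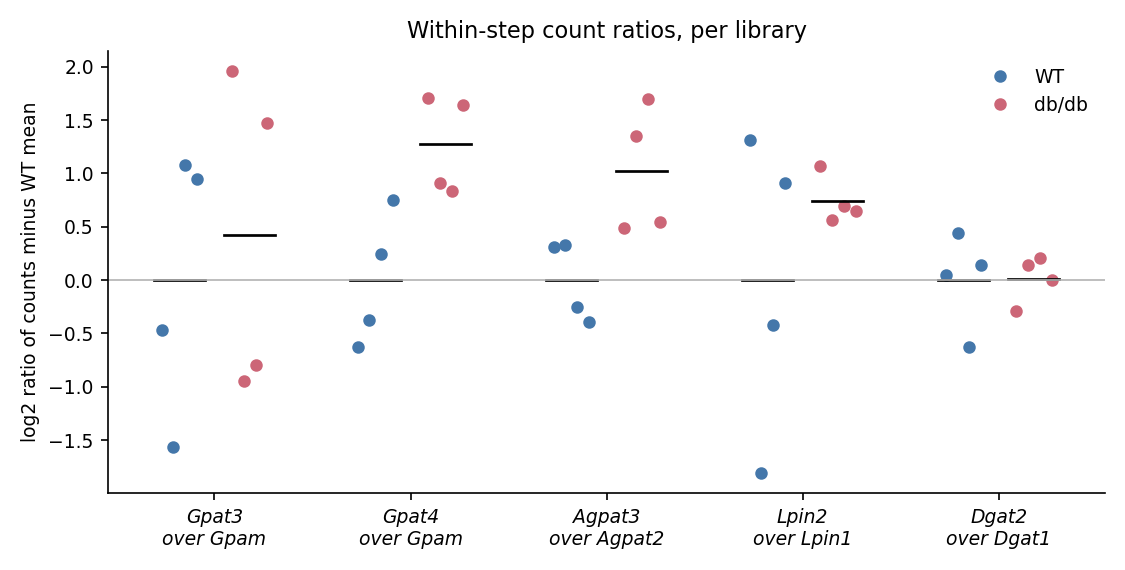
log2 ratio of counts of 2 genes of the same step in each library, less the WT mean of that ratio, for WT (blue) and db/db (red), with black bars for genotype means. The genotypes separate for Gpat4 over Gpam and Agpat3 over Agpat2, with mean differences of 1.27 and 1.02, and overlap for Dgat2 over Dgat1.

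RefSeq promoters on GRCm38.p6 were held for 6 of the 9 genes, and the 250 bases before the start are shown for the 3 of them that fell, Gpam, Agpat2 and Lpin1, and for Agpat3, the counterpart of Agpat2 that did not pass. Capitals mark matches on either strand to AGGTCA (the half-site of nuclear receptors such as PPARs and ERRs), CCAAT (bound by NF-Y), GGGCGG (bound by Sp1) and CACCCCAC (a core of sterol response elements). A match on the other strand is marked by its reverse complement, as with ATTGG for the NF-Y motif.
Gpam, chr19:55127239-55127488, minus strand: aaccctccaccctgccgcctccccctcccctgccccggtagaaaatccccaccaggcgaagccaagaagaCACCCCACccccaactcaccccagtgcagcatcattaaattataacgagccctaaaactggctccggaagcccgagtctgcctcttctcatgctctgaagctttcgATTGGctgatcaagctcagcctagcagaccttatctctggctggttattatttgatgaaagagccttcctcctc
Agpat2, chr2:26604418-26604667, minus strand: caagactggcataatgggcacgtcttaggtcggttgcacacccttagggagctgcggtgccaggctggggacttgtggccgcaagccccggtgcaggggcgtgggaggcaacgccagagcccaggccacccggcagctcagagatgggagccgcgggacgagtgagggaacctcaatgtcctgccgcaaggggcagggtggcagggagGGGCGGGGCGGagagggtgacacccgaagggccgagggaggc
Lpin1, chr12:16610967-16611216, minus strand: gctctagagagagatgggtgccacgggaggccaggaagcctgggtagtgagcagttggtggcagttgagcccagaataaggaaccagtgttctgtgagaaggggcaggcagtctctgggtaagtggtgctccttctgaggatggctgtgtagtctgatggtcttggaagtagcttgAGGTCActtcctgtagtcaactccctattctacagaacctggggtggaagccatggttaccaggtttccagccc
Agpat3, chr10:78351701-78351950, minus strand: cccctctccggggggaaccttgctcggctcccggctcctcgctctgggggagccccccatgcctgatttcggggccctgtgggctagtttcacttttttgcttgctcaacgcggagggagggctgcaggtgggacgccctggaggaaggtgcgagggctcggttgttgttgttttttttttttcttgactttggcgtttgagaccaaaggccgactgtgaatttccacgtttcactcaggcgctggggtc

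The Gpam window held CACCCCAC beginning 180 bases before the start and ATTGG 74 bases before it. Among 32851 promoter windows of the same length, CACCCCAC was in 2.58% and CCAAT in 33.8%. The Agpat2 window held GGGCGG at 42 and 37 bases before the start, a pair that overlaps by a single letter, and this motif was in 32.7% of windows. The Lpin1 window held AGGTCA 74 bases before the start, found in 14.0% of windows. The Agpat3 window held none of these motifs. Windows of Gpat3 and Lpin2, which did not pass either, are not shown but did hold matches. Gpat3 had GGGCGG at 81, 76 and 69 bases before the start. Lpin2 had GGGCGG or ATTGG before each of its RefSeq starts. Matches were thus found both in genes that fell and in genes that did not pass. A further RefSeq start of Gpam, whose window is not shown, had a nuclear receptor half-site and a match to the Sp1 motif. These are matches of letters in a fixed window, and no binding was measured.

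Other genes of the pathway were described from lists. Of 8 other genes of the same 4 steps (Gpat2, Agpat1, Agpat4, Agpat5, Lclat1, Lpin3, Mogat1 and Mogat2), 4 could be tested. None of the 4 passed (edgeR adjusted p 0.05), against 27.7% of all genes tested. Agpat1, the most abundant of the 4, lay at 58.5 ± 10.8 CPM in WT and 45.8 ± 6.88 CPM in db/db (log2 fold change of −0.35 with SE 0.17, adjusted p by edgeR 0.144). Agpat4 lay at 3.35 ± 0.499 CPM in WT and 6.94 ± 3.34 CPM in db/db (log2 fold change of 1.06 with SE 0.40, adjusted p by edgeR 0.0569). Agpat5 lay at 13.01 ± 1.75 and 18.8 ± 1.34 CPM (log2 fold change of 0.53 with SE 0.21, adjusted p by edgeR 0.0720). Lclat1 lay at 6.29 ± 2.02 and 6.72 ± 2.03 CPM (log2 fold change of 0.10 with SE 0.36, adjusted p by edgeR 0.875, all SD, n = 4 each). Agpat5 is overlapped on the other strand by a gene with 0 counts. With DESeq2 none passed either. Gpat2 had 0 counts in every library, and Lpin3, Mogat1 and Mogat2 had at most 14 counts in any.

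Among 8 genes of substrate supply, 7 were tested and 2 fell, where 11.9% of all genes tested were lower and 27.7% were called in either direction. Acsl1, the main acyl-CoA synthetase of fat, which activates fatty acids, fell from 981.5 ± 132.6 to 661 ± 45.2 CPM (SD, n = 4 each), a log2 fold change of −0.57 (SE 0.13, adjusted p by edgeR 0.00380) with no overlap. Gpd1, which makes glycerol 3-phosphate from a glycolytic intermediate, fell from 1503 ± 225.6 to 1022 ± 255.6 CPM (SD, n = 4 each), a log2 fold change of −0.56 (SE 0.17, adjusted p by edgeR 0.0224). Without WT replicate 2, WT replicate 4 or db/db replicate 3, Gpd1 did not pass (edgeR adjusted p from 0.0620 to 0.0705). With the muscle score in the model neither passed, at −0.69 for Acsl1 and −0.29 for Gpd1 (edgeR adjusted p 0.0797 and 0.601). Exons of Gpd1 overlap those of an antisense gene with 8 counts over all libraries, and exons of Acsl1 those of an antisense gene not analysed here.

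Of 9 partners, phosphatases and droplet assembly genes, 8 were tested and 1 rose, no larger a share than the 15.8% of all genes tested that were higher. Plpp3, a lipid phosphate phosphatase of the cell surface and endoplasmic reticulum, rose from 51.0 ± 10.4 to 102.5 ± 26.2 CPM (SD, n = 4 each), a log2 fold change of 1.01 (SE 0.19, adjusted p by edgeR 5.66e-04). With the muscle score in the model Plpp3 did not pass (0.76, edgeR adjusted p 0.172). Fitm1, a fat storage-inducing protein known mainly from skeletal muscle, did not pass the filter, with 1, 3, 3 and 3 counts in WT and 70, 33, 23 and 10 in db/db. Its relative Fitm2, at 89.8 ± 16.9 and 93.1 ± 14.5 CPM, and the seipin gene Bscl2, at 157 ± 21.2 and 145.1 ± 11.7 CPM, did not pass (SD, n = 4 each).

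The branch that draws phosphatidate and diacylglycerol into phospholipids had 20 genes, of which 18 were tested, 4 fell and 2 rose, near the 27.7% of all genes tested that were called. Crls1, which makes the mitochondrial lipid cardiolipin, fell from 254.4 ± 60.9 to 97.2 ± 29.1 CPM (SD, n = 4 each), a log2 fold change of −1.39 (SE 0.21, adjusted p by edgeR 1.08e-04). Ptdss2, a phosphatidylserine synthase, fell by 0.84 on the log2 scale (SE 0.16, adjusted p by edgeR 8.14e-04), and Chpt1, a cholinephosphotransferase that uses diacylglycerol, fell by 0.77 (SE 0.13, adjusted p by edgeR 2.16e-04). Chkb, a choline kinase, was the other gene that fell. Cdipt, the phosphatidylinositol synthase, rose by 0.90 (SE 0.25, adjusted p by edgeR 0.0129) and Cds2, which makes CDP-diacylglycerol from phosphatidate, by 0.67 (SE 0.19, adjusted p by edgeR 0.0143). Cds2 did not pass without WT replicate 1 (edgeR adjusted p 0.0561) or WT replicate 3 (0.0516). With the muscle score in the model Crls1 and Chpt1 passed (edgeR adjusted p 0.0481 and 0.0434), while Ptdss2, Cdipt and Cds2 did not, at log2 fold changes of −0.65, 1.27 and 0.40 (edgeR adjusted p 0.185, 0.0665 and 0.535). Of overlapping genes on the opposite strand, that of Crls1 had 0 counts, that of Chpt1 36 and that of Cdipt 18 over all libraries, against at least 19 Cdipt counts in each library. Chkb shares 1872 exonic bases with other genes, and its value is uncertain.

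Of 7 regulators of lipogenic genes, 6 were tested and 1 fell, near the 11.9% of all genes tested that were lower. Thrsp (Spot 14), a protein induced with lipogenesis, fell from 1377 ± 226.7 to 839 ± 212.3 CPM (SD, n = 4 each), a log2 fold change of −0.71 (SE 0.18, adjusted p by edgeR 0.00551), and did not pass with the muscle score in the model (−0.30, edgeR adjusted p 0.577). Srebf1, which encodes SREBP-1, lay at 12.96 ± 5.57 and 12.6 ± 7.28 CPM (SD, n = 4 each), a log2 fold change of −0.03 (SE 0.39, adjusted p by edgeR 0.965), and Mlxipl, which encodes the carbohydrate-responsive factor ChREBP, at 96.6 ± 16.3 and 75.9 ± 11.1 CPM (log2 fold change of −0.35 with SE 0.15, adjusted p by edgeR 0.105). Both are given for their known part in the pathway and were chosen after their values were seen. Median log2 fold changes were 0.31 for the other genes of the same steps, −0.22 for substrate supply, 0.17 for partners and phosphatases, −0.13 for the phospholipid branch and −0.37 for the regulators, against −0.66 for the 9 genes.

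**Figure D4:**
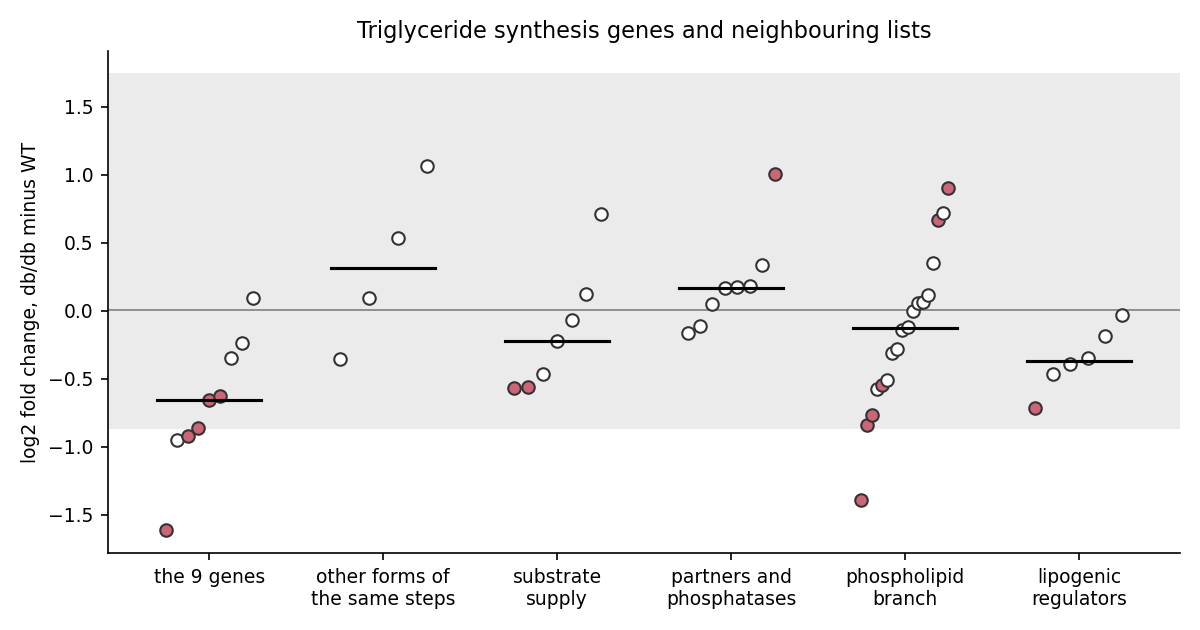
log2 fold change of db/db over WT for each tested gene (points) of the 9 genes and of 5 related lists, filled where the edgeR adjusted p was under 0.05, with black bars for list medians. The grey band holds the 5th to 95th percentile of all genes tested, −0.86 to 1.74, and the medians run from −0.66 for the 9 genes to 0.31 for other forms of the same steps.

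The gene with the largest fall, Gpam, was compared with 4525 genes of at least 20 CPM by the root mean square difference of log2 CPM over the 8 libraries, after each gene's WT mean was subtracted. A prior count of 2 entered the log2 CPM. It damps the profile of Gpam, at 5 to 28 counts per library, more than those of genes with more counts. The nearest were Ralgapa2 (difference 0.274; mean 96.3 CPM in WT and 39.4 in db/db), Impdh1 (0.331; 558.7 and 191) and Hdgfl2 (0.362; 36.8 and 15.3). None of the 9 genes was called higher, so no such comparison was made for a rise.

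Cell type markers moved with the genotype as well. Over all genes tested, 15.8% were called higher and 11.9% lower. The brown adipocyte markers fell in all 6 tested genes, with a median log2 fold change of −0.81, while of 7 general adipocyte markers 2 rose, none fell and the median was 0.04. The count for general adipocyte markers is near the 27.7% of all genes tested that were called in either direction. The summed level of 9 macrophage markers was 113.1 to 145.8 CPM across WT libraries and 631.2 to 1155 CPM across db/db libraries, with 7 of 8 tested genes higher, and that of 6 fibroblast markers was 541.1 to 670.4 and 1024 to 2093 CPM, with all 6 higher. Of 6 endothelial markers 3 fell, with sums of 354 to 417.6 and 242.7 to 294.8 CPM. For 12 skeletal muscle markers the sum was 414 to 1489 CPM across WT libraries and 2185 to 10910 CPM across db/db libraries, and all 12 rose. The part of these cells in the falls of the 9 genes was not tested.

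The highest muscle sum, 10910 CPM, was in db/db replicate 1, which also had the lowest db/db level of 5 of the 9 genes (Gpam, Gpat4, Agpat3, Lpin1 and Dgat2). db/db replicates 2 and 3 were lowest for 2 genes each. How often each library was lowest over all genes tested was not counted. db/db replicate 1 was also the highest of db/db in the sums of macrophage (1155 CPM), fibroblast (2093 CPM) and endothelial markers (294.8 CPM). It was the lowest in those of brown adipocyte (3183 CPM) and general adipocyte markers (17540 CPM). Without this library the 5 genes that fell over all libraries still did, with log2 fold changes of −1.40 for Gpam, −1.003 for Agpat2, −0.75 for Lpin1, −0.65 for Dgat1 and −0.53 for Dgat2. With the muscle marker score added to the model, 1 of the 9 genes fell in place of 5, Agpat2 (log2 fold change −1.09, edgeR adjusted p 0.0498). Lpin1 no longer passed, with a log2 fold change of −0.85 whose SE went from 0.18 to 0.296 (edgeR adjusted p 0.0925), and Gpam, Dgat1 and Dgat2 went to −0.93, −0.39 and −0.37 (edgeR adjusted p 0.558, 0.44 and 0.408). The score was itself higher in db/db, and why the calls were lost was not tested.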

How the data were processed

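Bulk RNA-seq of BAT from 4 WT and 4 db/db libraries was analysed, with groups and replicate numbers taken from the sample titles. The study gives 4 mice per genotype for these data, so p-values measure the spread between mice, library preparation included. The authors deposited raw counts per Ensembl gene from single-end reads of a commercial mRNA-seq service. The methods name bbduk, STAR and HTSeq-count on mm10, whereas the submitters' processing notes name Trimmomatic, HISAT2 and DESeq2. Strand setting and collapsing of PCR copies are not stated. The authors also deposited log2 values, the log2 of each scaled raw count plus 1, with 1 scaling constant per library, which were used only to recompute ratios.

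Identifiers were matched to GENCODE on the same build (31011 of 31053). Genes were filtered by filterByExpr (minimum count 10, minimum total 15), scaled by TMM and tested for genotype alone in edgeR (version 4.0.16, R version 4.3.3) by quasi-likelihood, with Benjamini-Hochberg adjustment over all genes tested. Standard errors were derived from the F statistic and 95% intervals from its t distribution. Ratios had 0.5 added to each count. Total counts were 2374079 to 2615009 in WT and 2382722 to 3240074 in db/db. Replicates of a genotype differed by more than counting error in all 12 pairs (chi-square per degree of freedom at least 3.99).

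The 9 genes, the lists and the tests were chosen with earlier results of these data known. All 9 genes were named, with up to 3 genes called higher and 3 called lower per list (at least 5 CPM), and the 3 nearest profiles. Some genes are given outside this rule. They are Chkb, the other genes of the same steps, Fitm1, Fitm2, Bscl2, Srebf1, Mlxipl and the overlapping gene Egfl7. Alternatives were DESeq2 1.42.0, limma-voom (3.58.1), other scalings and filters, the replicate number as a block, a muscle score covariate and leaving out each library. Scripts were tested on simulated data.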

Additional observations from a re-analysis of the deposited data

Results flagged for a closer look

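Dixon's criterion (95% level) was applied to each of the 9 genes and 5 ratios within each genotype, 28 sets of 4 values in all. It marked 1 set, and about 1.4 would be marked by chance. In that set WT replicate 3 had a Dgat2 level of 865.8 CPM, while the other WT libraries had 1076 to 1113 CPM. Without this library the log2 fold change of Dgat2 was −0.72 (edgeR adjusted p 0.0028).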

How the results depend on the processing

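The 5 genes that fell (Gpam, Agpat2, Lpin1, Dgat1 and Dgat2) passed in all 8 fits that left out 1 library, and no member changed its call there; 4 of 5 were called with at least 10 counts in every library, where Gpam was not tested, and 6 with every gene of at least 1 count, which added Gpat3. When a skeletal muscle score was added as covariate, 659 genes were called in place of 2568, 1 member in place of 5, 2 phospholipid branch genes in place of 6, and 0 in the lists of substrate supply, partners and phosphatases, and lipogenic regulators; the score moves with genotype and the cause was not tested. Under the other alternatives that kept all libraries, calls over all genes ran from 2018 with at least 10 counts in every library to 3170 with every gene of at least 1 count. Partners and phosphatases gave 2 calls with DESeq2 and with every gene tested. Lipogenic regulators gave 3 with every gene tested and 2 with the replicate block, and the other genes of the same steps gave 1 with at least 10 counts in every library. Replicate numbers did not pair the samples (correlations of deviations from −0.08 to 0.05), and with the replicate block 2557 genes and 5 members were called and the 2 separated ratios, whose differences of 1.27 and 1.02 the block cannot move, had an exact permutation adjusted p of 0.312, where 4 pairs allow no p under 0.125.

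Leaving out 1 library in turn, all calls ran from 2236 to 2483, members lower from 5 to 5, members higher from 0 to 0, other genes of the same steps from 0 to 1, substrate supply from 1 to 3, partners and phosphatases from 1 to 2, phospholipid branch from 5 to 7 and lipogenic regulators from 1 to 2. The log2 differences ran from 0.795 to 1.198 for Agpat3 over Agpat2, 1.065 to 1.523 for Gpat4 over Gpam, 0.141 to 1.181 for Lpin2 over Lpin1, −0.098 to 0.878 for Gpat3 over Gpam and −0.194 to 0.16 for Dgat2 over Dgat1. The sign of Gpat3 over Gpam turned without WT replicate 2 (−0.098) and db/db replicate 1 (−0.09), and that of Dgat2 over Dgat1 without WT replicate 3 (−0.194), db/db replicate 2 (−0.027) and db/db replicate 3 (−0.05). Depth is lowest for Gpam, Gpat3 and Lpin2, which rest on 4 to 36 counts per library.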
